A study of Sus scrofa with 4 samples.

Results

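miR-28, miR-151 and miR-708 are related microRNAs, each cut from a hairpin precursor that can yield a mature strand from its 5p arm and another from its 3p arm. They were followed in small RNA libraries of longissimus dorsi, a back muscle, from 4 breeds of pig, each represented by 1 library. All rows of the deposited table whose name without the arm suffix is miR-28, miR-151 or miR-708 were taken, which gave 6 of 271 listed miRNAs. The 3 miRNAs were chosen by their read counts on the 5p and 3p arms in these same libraries, so the arm ratios are described and carry no test.

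The indigenous Chinese breeds were the Diannan Small Ear pig and the Tibetan pig, and the introduced breeds were Landrace and Yorkshire. All libraries were made from total RNA of frozen muscle. The labels name no treatment, allele, age, sex or batch, and do not say whether a library held 1 animal or a pool, so any spread between libraries may in part be technical. The libraries held 4500803, 3592704, 2507082 and 5346460 counted reads, in the order Diannan Small Ear, Tibetan, Landrace and Yorkshire.

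As background, the RNase Dicer cuts a hairpin into a short duplex, and usually 1 strand of it is kept in an Argonaute protein while the other is degraded. The kept strand finds target mRNAs mainly through its seed, the bases near its 5′ end, so the arms of a hairpin read different targets. miR-28-5p and miR-708-5p share a seed, and miR-151-5p carries the same stretch of bases further from its 5′ end. In human, the precursors of miR-28 and miR-151 derive from LINE-2 transposable elements. In the RefSeq annotation of the Sscrofa11.1 assembly, the pig genes MIR28, MIR151 and MIR708 each lay inside a protein-coding gene. These were LPP, a protein of focal adhesions, PTK2, the focal adhesion kinase, and TENM4, a teneurin of the cell surface.

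The libraries stood apart in a way that crossed the types. Levels were taken as log2(CPM + 1), where CPM scales a count to a fixed total of counted reads. Over 197 miRNAs their Pearson's r was 0.981 for Diannan Small Ear with Landrace, and 0.973 for Tibetan with Yorkshire. Between the indigenous libraries r was 0.777, and between the introduced libraries it was 0.775. The striated muscle miRNAs (7 of 7 names listed, in 9 rows) summed to 17.6% of reads in Diannan Small Ear and 90.4% in Tibetan, and to 21.6% in Landrace and 96.9% in Yorkshire. Among these rows 1 was at 0 in Diannan Small Ear and 1 in Landrace. miR-1, the defining miRNA of the tissue, stood at 2564 CPM in Diannan Small Ear and 834008 in Tibetan, and at 3554 in Landrace and 926438 in Yorkshire. The muscle rows did not move together, as 4 of the 9 had a higher CPM and 5 a lower CPM in Diannan Small Ear than in Tibetan, and likewise in Landrace against Yorkshire. After TMM scaling, explained below, the first split stayed at 4 and 5, but 2 were higher and 7 lower in Landrace than in Yorkshire. miR-133a-3p, another striated muscle miRNA, stood at 54113 CPM in Diannan Small Ear and 28732 in Tibetan, and at 66791 in Landrace and 11211 in Yorkshire. Its TMM-scaled log2 level relative to its own mean was 0.31 in Diannan Small Ear and -0.17 in Tibetan. In Landrace it was -0.12 and in Yorkshire -0.014, so the higher level in Landrace was not seen on that scale. The liver list (3 of 4 names matched) made up 0.0779%, 0.00306%, 0.105% and 0.00318% of reads in the same order. Names were matched exactly, so miR-194a, which is listed, was left out of this sum. The neural list (2 of 4) held 38.9, 5.29, 45.9 and 1.5 CPM. Other lists kept less close to that order, with the stromal and smooth muscle list (5 of 5) at 1.51%, 1.67%, 3.03% and 0.313%, and the endothelial list (3 of 3) at 0.337%, 0.297%, 0.647% and 0.0629%. White blood cell miRNAs (5 of 6) held 0.0277%, 0.0333%, 0.0424% and 0.00851%, and erythroid miRNAs (2 of 2) 0.00898%, 0.0364%, 0.0259% and 0.00473%. Epithelial miRNAs (2 of 7) held between 0.444 and 7.18 CPM. All these lists are shares of the counted reads of a library. On that scale the median log2 ratio of miRNAs with reads in both libraries was 2.47 for Landrace over Yorkshire. It was 1.69 for Tibetan over Yorkshire and 0.25 for Diannan Small Ear over Tibetan. The part of cell make-up in the values that follow was not tested, and in bulk tissue fewer cells of a type and less RNA per cell cannot be told apart.

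The arm that gave most miR-28 reads differed between the breeds of a type. In human, the arms of miR-28 are known to act on different targets. In Diannan Small Ear there were 549 reads of miR-28-5p and 2948 of miR-28-3p, so that 15.7% came from the 5p arm (95% exact binomial interval 14.5 to 16.9). In Tibetan there were 1102 and 278 reads, or 79.9% (77.6 to 81.9). In Landrace there were 361 and 1608 reads, or 18.3% (16.6 to 20.1). In Yorkshire there were 444 and 83 reads, or 84.3% (80.9 to 87.3). By reads, the 3p arm was thus the major arm of miR-28 in 1 indigenous and 1 introduced library. The 5p arm was major in the other library of each type. The strands of a hairpin differ in sequence and may be captured with different efficiency. Here and below the arms are therefore compared by reads alone, which need not give their true abundance. All intervals given here describe the error of counting alone, as the reads carry no molecular identifiers and several may stem from 1 molecule.

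As a ratio, miR-28-5p over miR-28-3p was 0.186 in Diannan Small Ear (0.170 to 0.204), 3.96 in Tibetan (3.47 to 4.54), 0.225 in Landrace (0.200 to 0.252) and 5.35 in Yorkshire (4.22 to 6.85). Both counts of a ratio come from 1 library, so scaling between libraries cancels. The ratio was 21.3-fold lower in the Diannan Small Ear library than in Tibetan, and 23.8-fold lower in Landrace than in Yorkshire. Across the types, it was 1.21-fold lower in the Diannan Small Ear library than in Landrace and 1.35-fold lower in Tibetan than in Yorkshire. The separate intervals overlapped in both cases, which does not place these differences within the error of counting. In the other combinations it was 28.7-fold lower in the Diannan Small Ear library than in Yorkshire and 17.7-fold higher in Tibetan than in Landrace. Each breed had 1 library, so no replicate stands behind these differences.

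For miR-151 the same libraries stood apart, with nearly even arms in Diannan Small Ear and Landrace and a surplus of 5p in Tibetan and Yorkshire. Its 5p strand is linked in human liver cancer to cell migration, and its 3p strand is reported in mouse muscle to act on the calcium pump of slow fibres. In Diannan Small Ear there were 16906 reads of miR-151-5p and 14162 of miR-151-3p, so that 54.4% were 5p (53.9 to 55.0). In Tibetan there were 7187 and 1045 reads, or 87.3% (86.6 to 88.0). In Landrace there were 13966 and 12127 reads, or 53.5% (52.9 to 54.1). In Yorkshire there were 5243 and 531 reads, or 90.8% (90.0 to 91.5). The 5p arm was the larger in all 4 libraries, but only just so in Diannan Small Ear and Landrace.

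The ratio of miR-151-5p over miR-151-3p was 1.19 in Diannan Small Ear (1.17 to 1.22), 6.88 in Tibetan (6.44 to 7.35), 1.15 in Landrace (1.12 to 1.18) and 9.87 in Yorkshire (9.03 to 10.8). It was 5.76-fold lower in the Diannan Small Ear library than in Tibetan and 8.57-fold lower in Landrace than in Yorkshire. It was 1.04-fold higher in Diannan Small Ear than in Landrace and 1.44-fold lower in Tibetan than in Yorkshire. The separate intervals overlapped in the first case, which again does not place it within the error of counting, and not in the second. In the remaining combinations it was 8.27-fold lower in the Diannan Small Ear library than in Yorkshire and 5.97-fold higher in Tibetan than in Landrace.

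miR-708, which in mouse helps to keep muscle stem cells quiescent, had few reads and a 5p surplus in each library. Its 5p and 3p arms had 18 and 4 reads in Diannan Small Ear, 31 and 6 in Tibetan, 11 and 1 in Landrace, and 21 and 3 in Yorkshire. The 5p share was 81.8% in Diannan Small Ear (59.7 to 94.8), 83.8% in Tibetan (68.0 to 93.8), 91.7% in Landrace (61.5 to 99.8) and 87.5% in Yorkshire (67.6 to 97.3). All 4 intervals overlap, and a change of arm usage in miR-708 was not detectable at this depth. A count of 0 would allow up to 3 reads, and miR-708-3p was at or under that level in both introduced libraries, so no fold is given for it.

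**Figure D1:**
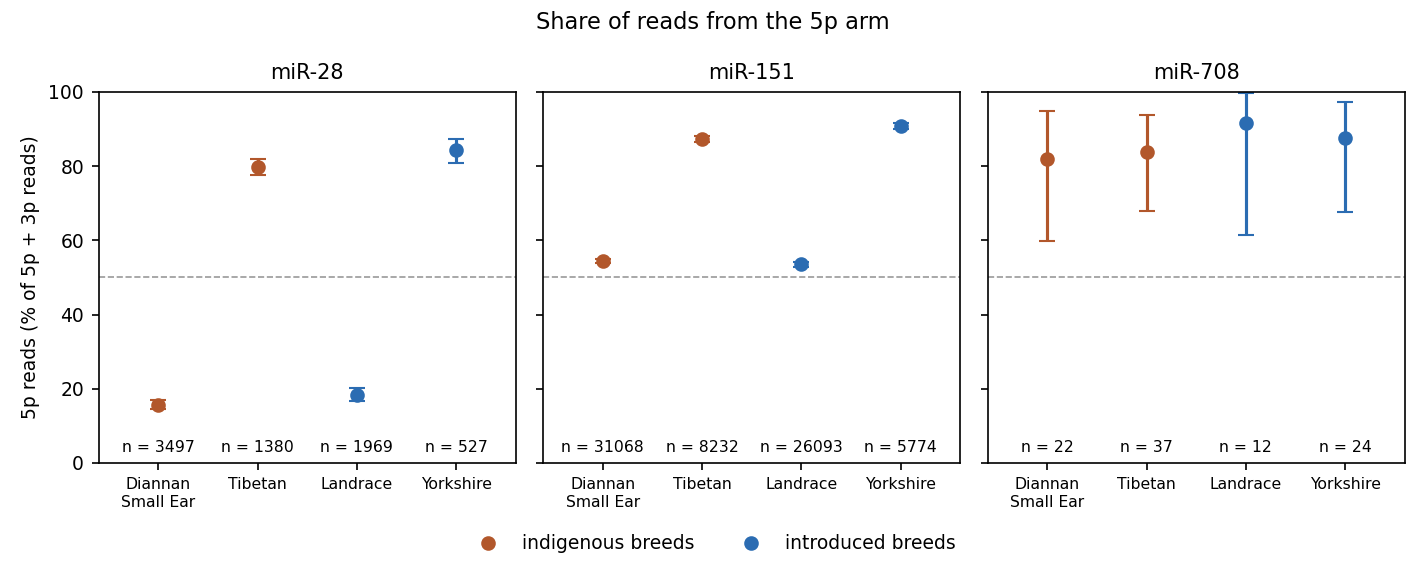
The vertical axis gives the reads of the 5p arm as a percentage of the reads of both arms, for each breed, with 95% exact binomial intervals and the reads of both arms (n) at the foot of each panel. miR-28 lies at 15.7% and 18.3% in Diannan Small Ear and Landrace and at 79.9% and 84.3% in Tibetan and Yorkshire, miR-151 does not fall below 53.5%, and the wide miR-708 intervals overlap.

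Between the types the arm ratios of miR-28 and miR-151 differed by less than the spread within a type. The mean log2 ratio of miR-28 was -0.22 ± 3.12 in indigenous and 0.13 ± 3.23 in introduced breeds (SD, n = 2 each). That of miR-151 was 1.52 ± 1.79 in indigenous and 1.75 ± 2.19 in introduced breeds. The types overlapped for both. That of miR-708 was 2.27 ± 0.14 in indigenous and 3.13 ± 0.46 in introduced breeds, without overlap, but it rests on 1 to 6 reads of the 3p arm per library. Among the 26 precursors with enough reads to compare, defined next, types without overlap were found for 7.69%.

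Other precursors give the background for these ratios. Both arms were listed for 54 precursors, and 29 of them had at least 100 reads over both arms in every library. Of these, 3 had an arm at 0 in some library, which left 26 precursors, among them miR-28 and miR-151 but not miR-708. Large shifts were common in this set. A ratio at least 2-fold apart was found for 76.9% of the 26 between Diannan Small Ear and Tibetan and for 73.1% between Landrace and Yorkshire, as well as for 80.8% between Diannan Small Ear and Yorkshire and 84.6% between Tibetan and Landrace. miR-28 and miR-151 were at least 2-fold apart in these 4 combinations. Between Diannan Small Ear and Landrace the share was 15.4%, and between Tibetan and Yorkshire 19.2%, and neither miR-28 nor miR-151 was among them.

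The direction was not shared by all precursors. Between Diannan Small Ear and Tibetan the 5p/3p ratio was lower in Diannan Small Ear for 16 of the 26 and higher for 10, with a median log2 difference of -0.58, against -4.41 for miR-28 and -2.53 for miR-151. Between Landrace and Yorkshire it was lower in Landrace for 15 and higher for 11, with a median of -0.46, against -4.57 for miR-28 and -3.10 for miR-151. These medians are signed, so shifts in opposite directions offset each other in them. Regardless of direction, 4 of the 26 moved further than miR-28 in the first combination, and 3 did in the second. For miR-151 these counts were 11 and 8.

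Over all 4 libraries the log2 ratio of miR-28 spanned 4.84, the 5th widest span of 26, and that of miR-151 spanned 3.10, the 11th widest, where the median precursor spanned 2.15. The widest spans were those of miR-374a (7.04), miR-10a (6.99) and miR-143 (5.37). The minor arm of miR-10a had 4 to 7 reads per library and that of miR-143 had 1 to 33, whereas the smaller arm of miR-28 had 83 reads at least. The narrowest spans were those of miR-30a (0.65), miR-450c (0.95) and miR-145 (1.05). With a minimum of 50 reads on each arm, a limit chosen after the values were seen, 12 precursors were left, and miR-28 ranked 2nd after miR-374a and miR-151 6th. The major arm differed between libraries in 3 of the 26 precursors, which were miR-28, miR-374a and miR-423.

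**Figure D2:**
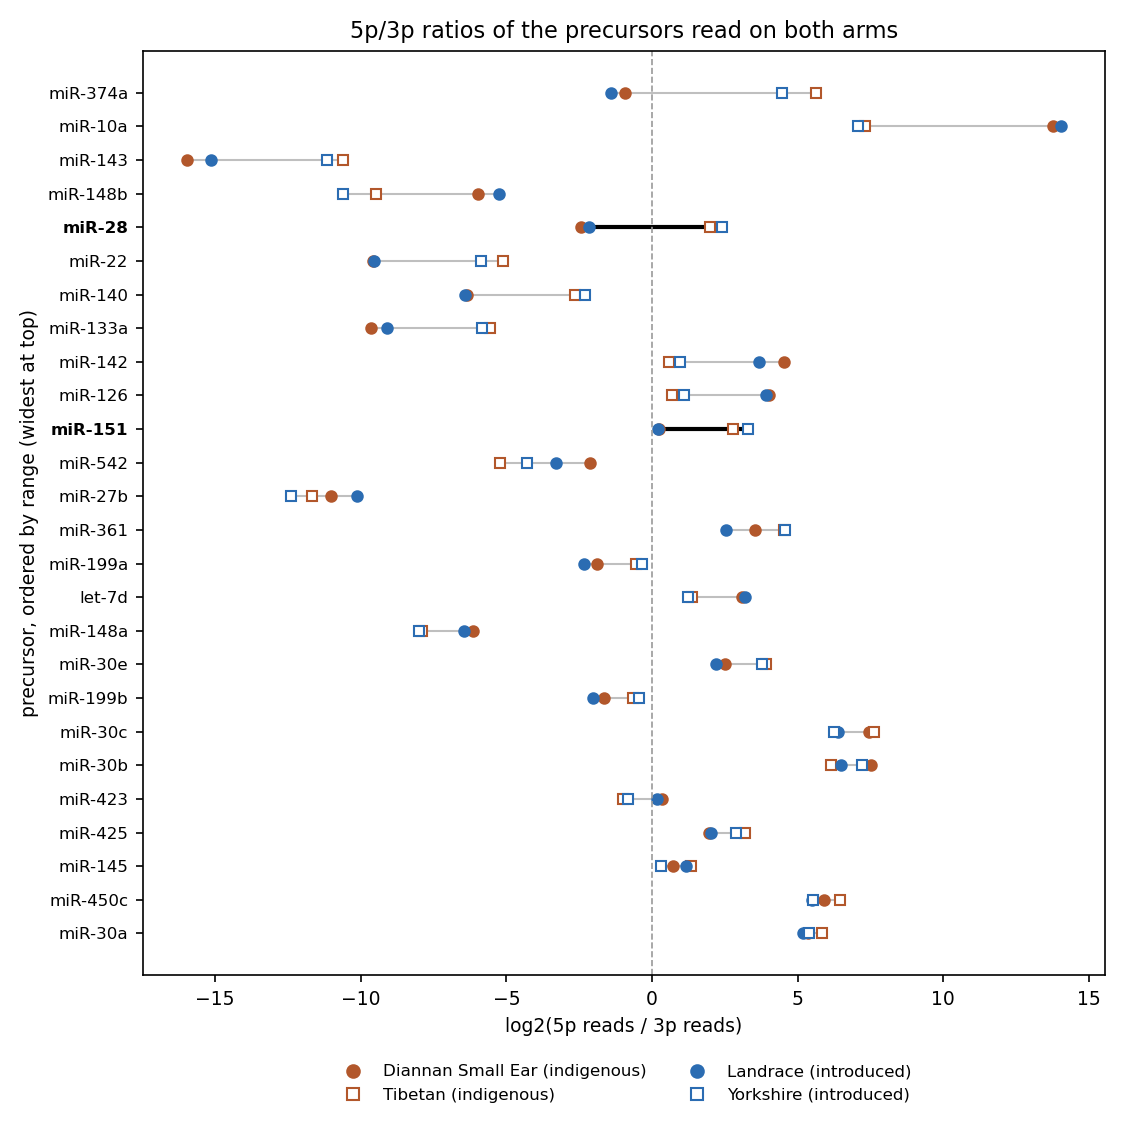
Each row is 1 of 26 precursors and each symbol 1 library, at the log2 ratio of 5p reads over 3p reads, with circles and squares used only to tell the breeds of a type apart. The black lines mark miR-28, which crosses 0 with a span of 4.84, and miR-151, with a span of 3.10, and the rows run from the widest span at the top to the narrowest.

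The single arms showed which reads carried these shifts, although levels, unlike ratios, depend on how libraries are scaled. miR-28-3p stood at 655 CPM in Diannan Small Ear and 77.4 in Tibetan, and at 641 in Landrace and 15.5 in Yorkshire. After TMM scaling, which estimates a factor per library from the bulk of miRNAs, these became 492, 78.6, 290 and 45.1 CPM. The factors were 1.33, 0.985, 2.21 and 0.345 in the same order. Most miRNAs were still at least 2-fold apart between unlike libraries, as given below, which leaves such factors uncertain. The Diannan Small Ear and Landrace values of miR-28-3p lay above the Tibetan and Yorkshire values on both scales. miR-28-3p was 6.26-fold higher in Diannan Small Ear than in Tibetan after TMM scaling (5.53 to 7.10) and 6.43-fold higher in Landrace than in Yorkshire (5.16 to 8.12). With total counts the folds were 8.46 and 41.3. In log2 units these were 3.08 and 5.37, where the median miRNA stood at 0.25 and 2.47.

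miR-28-5p stood at 122 CPM in Diannan Small Ear and 307 in Tibetan, and at 144 in Landrace and 83.05 in Yorkshire. After TMM scaling it stood at 91.6, 311, 65.1 and 241 CPM. It was 3.40-fold lower in the Diannan Small Ear library than in Tibetan (3.07 to 3.78) and 2.51-fold lower with total counts. Landrace against Yorkshire had no stable direction, since miR-28-5p was 3.70-fold lower in Landrace with TMM (3.22 to 4.27), 3.20-fold lower with RLE scaling, and 1.73-fold higher with total counts. The opposite movement of the miR-28 arms was therefore seen under all 3 scalings between the indigenous breeds, and under 2 of them between the introduced breeds.

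miR-151-3p followed miR-28-3p. It stood at 3147 CPM in Diannan Small Ear and 291 in Tibetan, and at 4837 in Landrace and 99.3 in Yorkshire. After TMM scaling these became 2362, 295, 2186 and 288 CPM. It was 8.0-fold higher in Diannan Small Ear than in Tibetan (7.51 to 8.52) and 7.58-fold higher in Landrace than in Yorkshire (6.95 to 8.29). The folds became 10.8 and 48.7 with total counts. In log2 units these were 3.44 and 5.61, where the median miRNA stood at 0.25 and 2.47.

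miR-151-5p, the member with most reads, had the narrowest range, taken as a fold, of the 5 tested members after TMM scaling. It ranked 15th of the 271 listed miRNAs in Diannan Small Ear, 17th in Tibetan, 17th in Landrace and 13th in Yorkshire. It stood at 3756, 2000.4, 5571 and 981 CPM in that order, and at 2820, 2031, 2518 and 2846 CPM after TMM scaling. With TMM it was 1.39-fold higher in Diannan Small Ear than in Tibetan (1.35 to 1.43) and 1.13-fold lower in Landrace than in Yorkshire (1.10 to 1.17). With total counts it was 1.88-fold higher in Diannan Small Ear than in Tibetan and 5.68-fold higher in Landrace than in Yorkshire. In log2 units these were 0.91 and 2.51, where the median miRNA stood at 0.25 and 2.47.

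miR-708-5p stood at 4.0 CPM in Diannan Small Ear (2.37 to 6.32), 8.63 in Tibetan (5.86 to 12.2), 4.39 in Landrace (2.19 to 7.85) and 3.93 in Yorkshire (2.43 to 6.0). With TMM it was 2.92-fold lower in the Diannan Small Ear library than in Tibetan (1.58 to 5.54) and 5.75-fold lower in Landrace than in Yorkshire (2.65 to 13.2). With total counts the first became 2.16-fold lower, and the second 1.12-fold higher with an interval that spans no change (0.486 to 2.42). Of the mouse muscle stem cell miRNAs listed beside it, miR-489 had 5, 4, 6 and 1 reads in the order Diannan Small Ear, Tibetan, Landrace and Yorkshire, and miR-31 had 1 read, in Landrace. miR-195 had 81.8, 175, 169 and 46.8 CPM and miR-497 15.1, 31.2, 46.7 and 5.80 CPM. Of the 2 that could be tested between the types, 0 passed.

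**Figure D3:**
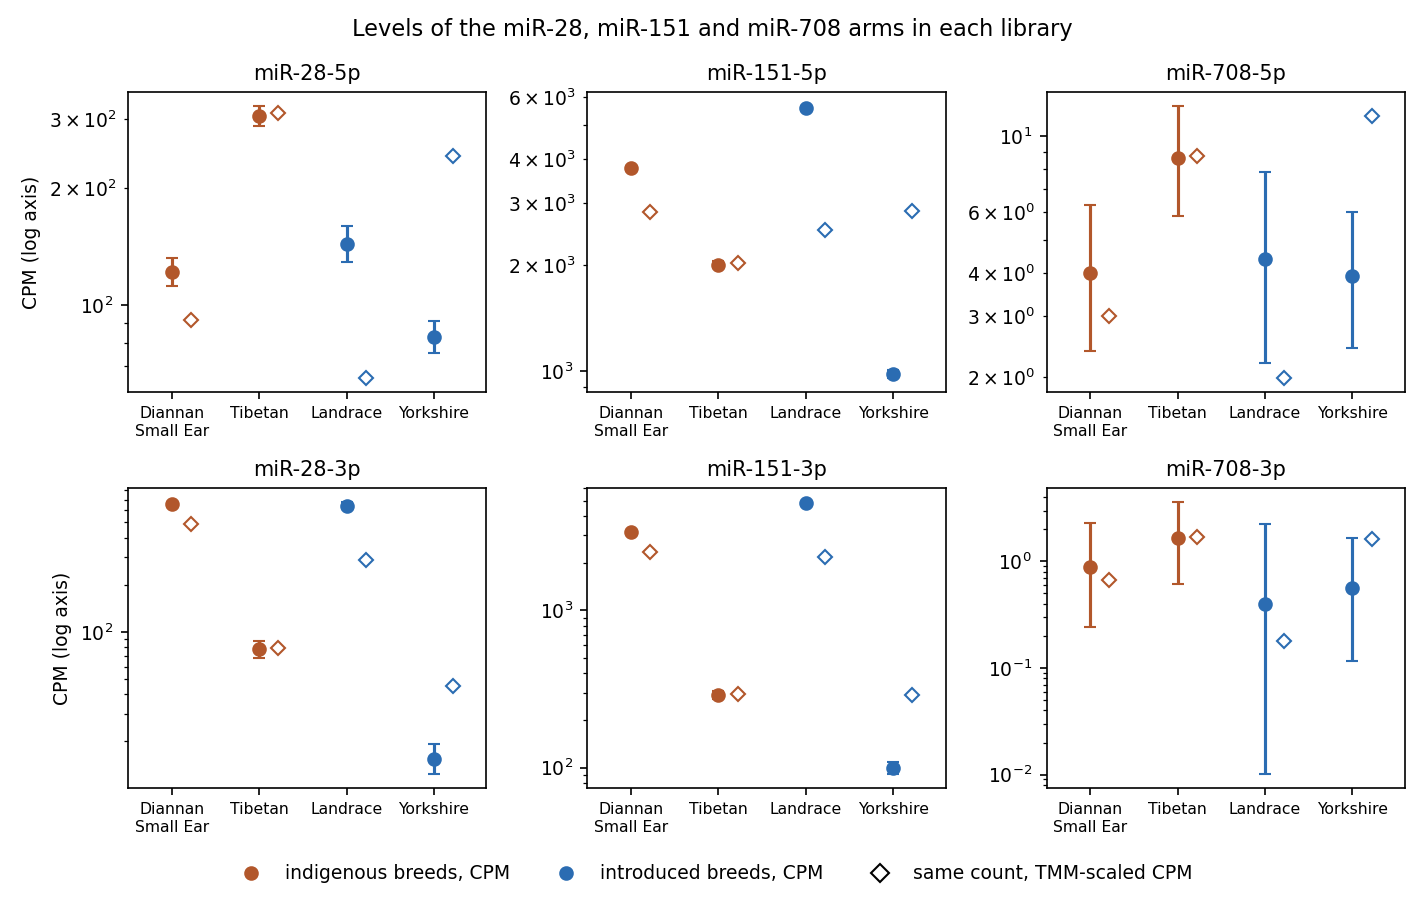
Filled circles give the CPM of each arm in each library on a log axis with 95% exact binomial intervals, and open diamonds give the same count after TMM scaling. The 3p arms of miR-28 and miR-151 are higher in Diannan Small Ear and Landrace than in Tibetan and Yorkshire on both scales, whereas miR-151-5p lies between 2031 and 2846 CPM after TMM scaling.

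Read against all miRNAs, a difference of at least 2-fold was common between libraries that did not resemble each other. How the larger folds ranked among all miRNAs was not examined. With TMM, 4 of the 5 tested members were at least 2-fold apart between Diannan Small Ear and Tibetan, where 63.9% of all miRNAs with reads in both were, and 4 of 5 between Landrace and Yorkshire, where 66.7% were. The exception in both was miR-151-5p. The count was also 4 of 5 between Diannan Small Ear and Yorkshire, against 66.7%, and between Tibetan and Landrace, against 68.6%. In each of these, 2 members were higher and 2 lower with TMM and with RLE. With total counts the split was again 2 higher and 2 lower between Diannan Small Ear and Tibetan, where 70.1% of all miRNAs were at least 2-fold apart. It became 3 higher and 0 lower in Landrace than in Yorkshire (80.7% of all) and in Diannan Small Ear than in Yorkshire (78.1%), and 1 higher and 3 lower in Tibetan than in Landrace (69.6%). Between Diannan Small Ear and Landrace 0 of 5 were at least 2-fold apart, against 8.67%, and between Tibetan and Yorkshire 0 of 5, against 24.5%. With total counts all 5 were at least 2-fold higher in Tibetan than in Yorkshire, where 80.7% of all miRNAs were at least 2-fold apart.

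**Figure D4:**
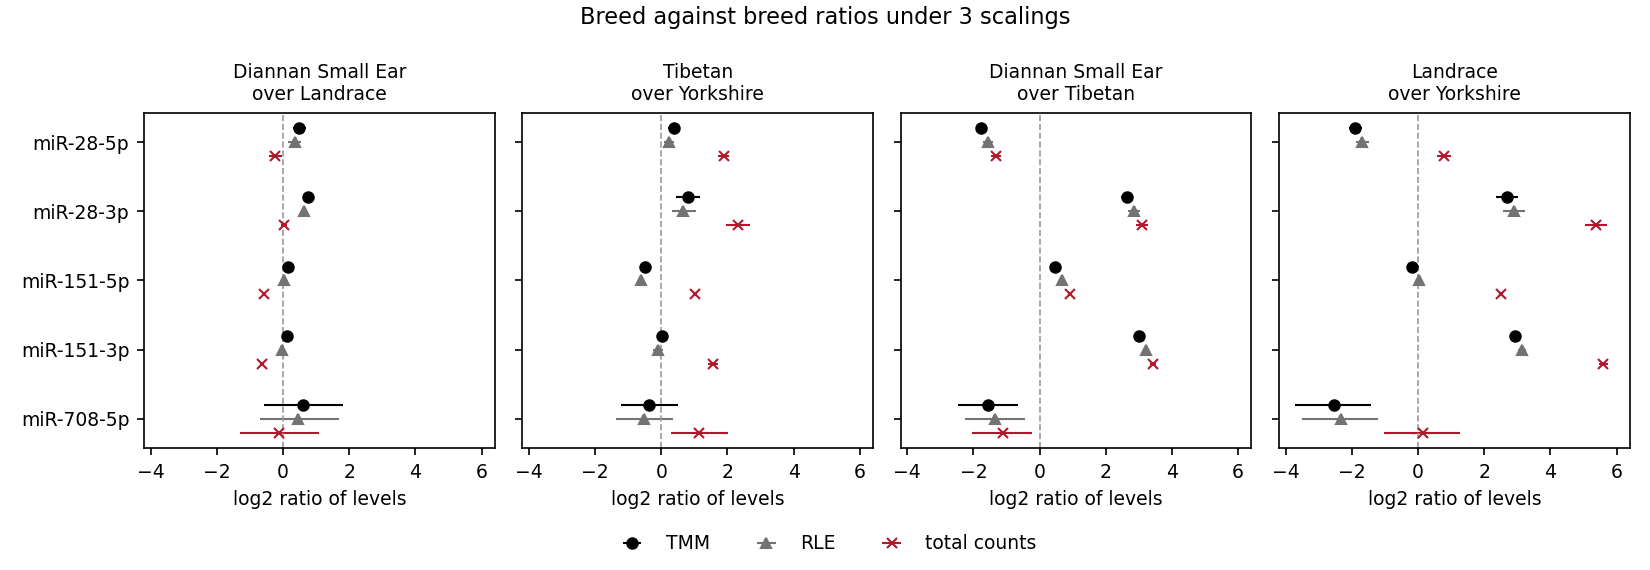
The horizontal axis gives the log2 ratio of the level in the first breed over that in the second, for 5 members and 3 scalings, with 95% exact binomial intervals. The 3p arms of miR-28 and miR-151 are higher in Diannan Small Ear than in Tibetan and in Landrace than in Yorkshire under all 3 scalings, whereas miR-28-5p lies 3.70-fold lower in Landrace than in Yorkshire with TMM and 1.73-fold higher with total counts.

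The comparison the series was built on, indigenous against introduced breeds, was made for each member in a fit of all 197 tested miRNAs by edgeR's quasi-likelihood test. Of the 5 members tested 0 passed an adjusted p of 0.05, and 0% of all tested miRNAs did. Of the 197, 1 had an unadjusted p under 0.05 by edgeR, and DESeq2 also called 0, with 1 under 0.05. The edgeR adjusted p was 0.996 for each member. The log2 fold change of indigenous over introduced breeds was 0.77 ± 1.42 (SE) for miR-28-3p and 0.40 ± 1.15 for miR-28-5p. It was 0.10 ± 1.54 for miR-151-3p, -0.15 ± 0.91 for miR-151-5p and -0.16 ± 1.20 for miR-708-5p. The median was 0.10 over the 5 members and 0.12 over all tested miRNAs. miR-708-3p had too few reads to be tested.

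In TMM-scaled CPM, miR-28-3p averaged 285 ± 292 in indigenous and 167 ± 173 in introduced breeds (SD, n = 2 each), and miR-28-5p averaged 202 ± 156 and 153 ± 124 in the same order. miR-151-3p averaged 1329 ± 1461 in indigenous and 1237 ± 1342 in introduced breeds, and miR-151-5p 2426 ± 557 in indigenous and 2682 ± 232 in introduced breeds. miR-708-5p averaged 5.88 ± 4.07 in indigenous and 6.69 ± 6.66 in introduced breeds. The types overlapped for all 5, while 13.7% of tested miRNAs had types without overlap. Leaving out 1 library turned the direction of each member, and by construction it leaves 1 type with a single one of its unlike libraries. The log2 fold change of miR-28-3p lay between -1.22 without Diannan Small Ear and 2.83 without Landrace.

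The libraries that resembled each other can also be set side by side across the types, as a description with no replicates. With TMM, the level of miR-28-3p in the Diannan Small Ear library was 1.70 times that of Landrace (1.60 to 1.80), and in the Tibetan library 1.74 times that of Yorkshire (1.36 to 2.26). miR-28-5p was 1.41-fold higher in Diannan Small Ear (1.23 to 1.61) and 1.29-fold higher in Tibetan (1.16 to 1.45) in the same comparisons. Both arms of miR-28 were thus higher in the indigenous library of each combination, also with RLE scaling. With total counts miR-28-5p was 1.18-fold lower in the Diannan Small Ear library than in Landrace and 3.69-fold higher in Tibetan than in Yorkshire. On that scale miR-28-3p in Diannan Small Ear was 1.02 times that of Landrace, with an interval that includes no change (0.961 to 1.09). In Tibetan it was 4.98 times that of Yorkshire. With TMM, miR-151-3p was 1.08-fold higher in Diannan Small Ear when set against Landrace (1.05 to 1.11). This direction depended on the scaling. With RLE the interval included no change (0.960 to 1.01), and with total counts miR-151-3p was 1.54-fold lower in Diannan Small Ear. The 95% intervals of miR-151-3p in Tibetan over Yorkshire (0.922 to 1.14) and of miR-708-5p in both combinations included no change with TMM. With TMM, miR-151-5p was 1.12-fold higher in Diannan Small Ear than in Landrace and 1.40-fold lower in Tibetan than in Yorkshire. Total counts reversed both, to 1.48-fold lower in Diannan Small Ear and 2.04-fold higher in Tibetan. With RLE the interval of the first comparison included no change (0.997 to 1.04), and the second was 1.54-fold lower in Tibetan.

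The 5p members were then set against each other within each library, as shares of their summed reads. miR-151-5p held 96.8% of them in Diannan Small Ear (96.5 to 97.0), 86.4% in Tibetan (85.6 to 87.1), 97.4% in Landrace (97.1 to 97.7) and 91.9% in Yorkshire (91.1 to 92.6). miR-28-5p held 3.14%, 13.2%, 2.52% and 7.78%, and miR-708-5p 0.103%, 0.373%, 0.0767% and 0.368%, in the same order. The shares of both were higher in Tibetan and Yorkshire than in Diannan Small Ear and Landrace. The mature strands differ in sequence and may be captured with different efficiency, so these shares compare libraries rather than the true abundance of the strands.

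miR-28-5p and miR-708-5p, which share a seed, stood in similar proportions in the 4 libraries. miR-28-5p had 30.5 times the reads of miR-708-5p in Diannan Small Ear (19.1 to 51.9), 35.5 times in Tibetan (24.9 to 52.6), 32.8 times in Landrace (18.1 to 66.3) and 21.1 times in Yorkshire (13.7 to 34.5). These 4 intervals overlap. miR-151-5p had 30.8 times the reads of miR-28-5p in Diannan Small Ear (28.3 to 33.6), 6.52 times in Tibetan (6.12 to 6.95), 38.7 times in Landrace (34.8 to 43.1) and 11.8 times in Yorkshire (10.7 to 13.0). Between the 3p strands, miR-151-3p had 4.80, 3.76, 7.54 and 6.4 times the reads of miR-28-3p in the same order of breeds, a narrower range than that of either arm ratio.

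The TMM-scaled level pattern of miR-28-5p was closer to that of miR-708-5p than to that of its own hairpin partner, and miR-28-3p was likewise closer to miR-151-3p. Likeness was measured as the distance between the log2 CPM values of 4 libraries after each miRNA was centred on its own mean, where 0 is an identical pattern. miR-28-5p lay 0.52 from miR-708-5p, its 5th nearest of 196 other miRNAs, and 4.49 from miR-28-3p, which ranked 171st. miR-28-3p lay 0.77 from miR-151-3p, its 8th nearest. miR-151-3p lay 2.84 from miR-151-5p, which ranked 80th, and miR-151-5p lay 2.07 from miR-28-5p, which ranked 111th. These distances restate the arm ratios in part, rest on 4 libraries and are given as a description.

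The miRNAs nearest to miR-28-5p were miR-34a (0.29), miR-145-3p (0.35) and miR-424-5p (0.46). Those nearest to miR-708-5p were miR-425-5p (0.30), miR-331-5p (0.43) and miR-7 (0.50). For miR-28-3p they were miR-338 (0.27), miR-130a (0.49) and miR-215 (0.51). For miR-151-3p they were miR-215 (0.32), let-7a (0.50) and miR-296-3p (0.52), of which miR-215 had 1 read and miR-296-3p 0 reads in Yorkshire. For miR-151-5p they were miR-1306-5p (0.16), miR-935 (0.23) and the muscle miRNA miR-133a-3p (0.30).

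**Figure D5:**
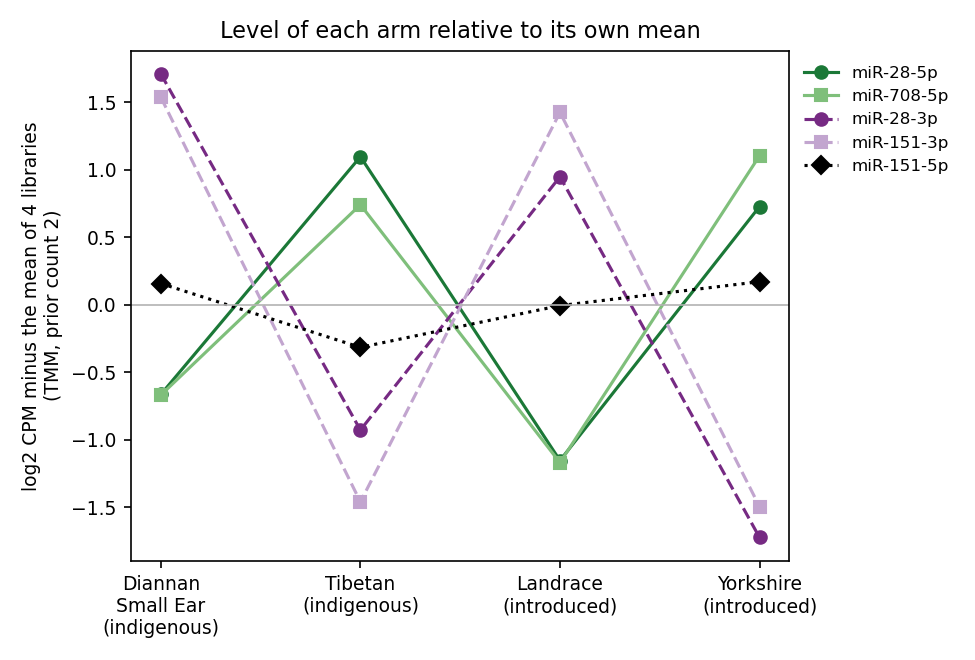
The vertical axis gives the log2 CPM (TMM-scaled, prior count 2) of each strand minus its own mean over the 4 libraries, and the lines only join the values of a strand. miR-28-5p and miR-708-5p run together, miR-28-3p and miR-151-3p run the opposite way, and miR-151-5p stays between -0.32 and 0.17.

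Summed over both arms, miR-28 stood at 777 CPM in Diannan Small Ear and 384 in Tibetan, and at 785 in Landrace and 98.6 in Yorkshire. miR-151 stood at 6903, 2291, 10408 and 1080 CPM in that order. After TMM scaling the sums were 583, 390, 355 and 286 CPM for miR-28, and 5182, 2327, 4704 and 3135 CPM for miR-151. On this scale the miR-28 sum spanned a narrower range, taken as a fold, than either of its arms. These ran between 65.1 and 311 CPM for 5p and between 45.1 and 492 CPM for 3p. In unscaled CPM this did not hold, since miR-28-5p ran between 83.05 and 307 CPM and the sum between 98.6 and 785 CPM.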

How the data were processed

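The 4 libraries were made from total RNA extracted with Trizol and sequenced on a HiSeq 2000, per the labels. The authors deposited 1 table of raw read counts and CPM values for 271 known miRNAs, per the file headers, and the CPM values equalled each count over its column total to within 4.2e-05. No label or header names the aligner, the miRNA database or the build (not given in the sources used here), and coordinates are left out. Near-identical sequences may share reads.

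Pig types were tested against each other by edgeR 4.0.16 (glmQLFit, glmQLFTest, two-sided) on the deposited counts after filterByExpr and TMM scaling, with Benjamini-Hochberg adjustment over all 197 tested miRNAs. The SE is the fold change over the root of F. The fit had 2 residual degrees of freedom. Arm ratios used raw counts with no pseudocount. Breeds were compared as ratios of scaled counts, with no test and 95% exact binomial intervals (scipy 1.17.1). Alternatives were RLE and total-count scaling, no filter, DESeq2 1.42.0, 1 added to arm counts, reads summed per type and each library left out. Like miRNAs were the 3 nearest by centred log2 CPM (prior count 2), and precursors were named for the 3 widest and 3 narrowest spans. The members, marker lists and comparisons were chosen with earlier results of these data known.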

Additional observations from a re-analysis of the deposited data

How the results depend on the processing

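The number of miRNAs called between types was 0 under all 8 alternatives run. This is no sign of stability, since the fit had 2 residual degrees of freedom and a biological coefficient of variation of 98.6%, and 4 of the 8 leave a type with a single library that is assumed to vary like the other type. The miR-151-3p log2 fold change was -0.031 with RLE scaling, -0.0311 with DESeq2 and -0.52 with total counts, and that of miR-708-5p was 0.60 with total counts. With 1 library left out, the range was -1.11 to 1.42 for miR-708-5p, -0.74 to 1.5002 for miR-28-5p, -1.22 to 2.83 for miR-28-3p, -0.52 to 0.075 for miR-151-5p and -2.20 to 2.37 for miR-151-3p. The lowest edgeR adjusted p of a member under any alternative was 0.990. The type difference in the log2 arm ratio of miR-708 was -0.86, and -0.46 with 1 added to each arm count, which the few 3p reads make sensitive. With 1 library left out it ran between -1.19 without Yorkshire and -0.54 without Landrace. Those of miR-28 and miR-151 moved by less than 1 SD under each alternative, which with SDs of 3.18 and 2.0 shows little. Their main values were -0.35 and -0.23, and leaving out some libraries turned their sign. Summing the arm counts per type, with all libraries kept, also turned it, to 0.10 and 0.062. With total counts 64 miRNAs were at least 2-fold apart between Diannan Small Ear and Landrace, against 17 with TMM, and 155 against 47 between Tibetan and Yorkshire. No paired analysis was possible because the labels give no replicate number, animal or batch shared between the types. Depth limited miR-708, with 12 to 37 reads over both arms.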
